A study of Mus musculus with 96 samples.

Results

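Pancreatic islets of male C57BL/6N mice were compared after 8 weeks on a high-fat diet (HFD) or a chow diet (CD). The comparison holds the 8 islet libraries that the labels place at week 8, 4 of HFD mice and 4 of CD mice, out of 48 islet libraries and 96 libraries in all, the others coming from other weeks or from liver. The mice were bought at 4 weeks of age and carried no genetic modification that the labels name. CD was LabDiet 5001, with 13.5% fat, and HFD was Research Diets D12492, with 60% fat; chow is a grain-based diet and HFD a purified one, so that the groups differ in more than the amount of fat. Each library was made from the islets of 1 mouse, freed with collagenase and picked by hand, and its poly(A) RNA was sequenced on a BGISEQ-500 instrument. The comparison asks how the islet transcriptome differs between the diets at this time on the diet.

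Islets are clusters of endocrine cells in the pancreas. β-cells, the most frequent cell type in the mouse islet, make insulin and amylin, take up glucose through the transporter Slc2a2 and release insulin when glucose metabolism closes potassium channels and opens calcium channels. α-cells make glucagon, and δ-cells make somatostatin, which restrains both other hormones. Obesity raises the demand for insulin, and islets of fat-fed mice are known to enlarge mainly by gaining β-cells.

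Values are FPKM (fragments per kilobase of transcript, relative to the mapped fragments of the library), which account for gene length, so that levels of different genes may be set side by side on this scale only. They are listed below in the order CD203, CD205, CD207, CD208 and HFD211, HFD212, HFD213, HFD217, the names of the mice. The libraries had the profile of islets. Ins1 and Ins2 together took between 65.6% and 67.7% of the summed FPKM in CD and between 63.0% and 72.1% in HFD, and Gcg, Sst and Ppy, the genes of glucagon, somatostatin and pancreatic polypeptide, lay between 1195 and 12588 FPKM in every library. The sum of all FPKM ran from 977373 to 1014949 in CD and from 982648 to 1141785 in HFD, and between 11422 and 11873 genes reached 1 FPKM. The number of reads behind these values is unknown from the values, so that no counting error can be given for any of them.

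HFD217 stood apart from the other 3 HFD libraries in several measures, though not in all. It had the lowest insulin share of the 8 libraries and the highest acinar content, the 33 markers of the digestive tissue around the islets summing to 66299 FPKM in HFD217, 5629 in HFD211, 32029 in HFD212, 40762 in HFD213 and between 24083 and 32026 in CD. Of the 1787 genes that passed the test without HFD217, 35.8% lay on the HFD side of the midpoint between the groups in HFD217 itself, whereas each of the other 7 libraries lay on its own side of the midpoint for between 78.8% and 88.8% of the genes that passed without it, which were fewer, between 116 and 297. The correlation of log2(FPKM + 1) with the mean of the other libraries of the same diet was lowest in HFD211, at 0.986. It was 0.989 in HFD217, 0.9915 in HFD212 and 0.9921 in HFD213. HFD211 also had the highest insulin share and the lowest acinar sum. Results that rest on HFD217 are given with and without it.

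After 8 weeks of HFD, islets had lower levels of several hormone and identity genes of α- and δ-cells, of the glucose transporter Slc2a2, of receptors through which β-cells sense incretins, prolactin and fatty acids, of 4 tubulin genes and of the neuropeptide gene Npy. Of these, Slc2a2, Npy, Hhex, Prlr, Gipr, Ffar1 and Tuba1b also fell after the libraries were scaled to each other, whereas Gcg and Sst did not pass. Fewer genes were higher, led by Gc, Nupr1, Defb1, Dapl1 and Mum1l1, and the granule protein gene Scg2 rose by less. Of these, Nupr1 did not pass after scaling. Gc, Nupr1 and Defb1 kept their calls in 2, 2 and 3 of the 8 fits that left out 1 library. The changes were small: 602 of the 613 called genes had a log2 fold change under 1 in size. Across 11636 genes with at least 1 FPKM in 4 or more libraries, limma on log2(FPKM + 1) called 613 genes at an adjusted p under 0.05, which is 5.27% of those tested. Of these, 70 were higher in HFD (0.602%) and 543 were lower (4.67%). Of the called genes, 11 also had a log2 fold change of at least 1 in size, 8 of them higher and 3 lower, which is 0.0945% of the genes tested. The values of the groups did not overlap for 596 of the 613 called genes, and for 2005 of all genes tested (17.2%).

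The surplus of lower genes depended on the scale. As deposited, 9049 genes (77.8%) had a log2 fold change below 0 and the median over all genes tested was -0.11. When the libraries were scaled to each other by the median ratio of their genes, the median became -0.0033, 5942 genes (51.1%) were below 0, and 166 of 11627 genes were called (1.43%), 88 higher and 78 lower. The lower genes thus made up 88.6% of the calls as deposited and 47% after scaling. Both scales called 142 genes in the same direction, 64 higher and 78 lower. A total of 92 genes, 14 higher and 78 lower, were called in each of the 8 fits that left out 1 library. The number of calls in those fits was 1787 without HFD217 and between 116 (without CD208) and 297 (without CD207) in the others. With insulin left out of the total instead, the surplus of lower genes remained, at 650 calls, 46 higher and 604 lower, and a median of -0.113.

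**Figure D1:**
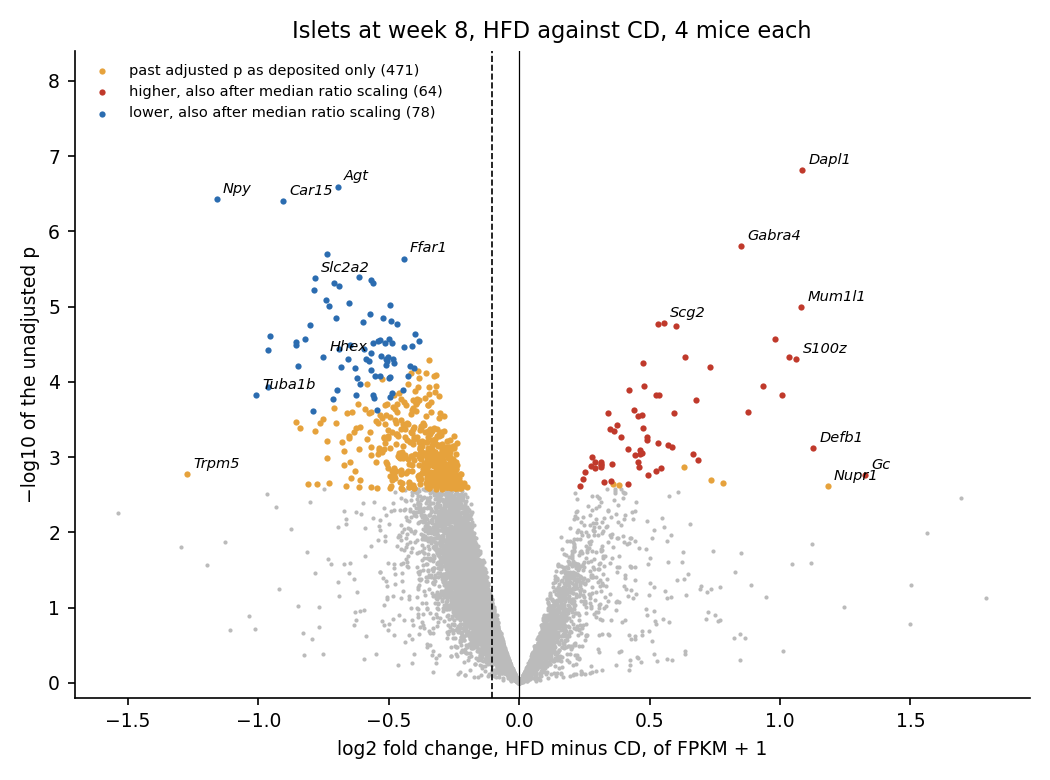
Log2 fold change of HFD minus CD on the log2(FPKM + 1) scale (horizontal) against the negative log10 of the unadjusted p from limma (vertical) for 11636 genes in islets at week 8. Grey points did not pass, orange points passed on the deposited scale only, and red (64 genes) and blue (78 genes) passed on both scales; the dashed line is the median of all genes, -0.11, and most coloured points lie on the lower side.

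The 8 genes that rose past the fold threshold came from several functions. Gc, the vitamin D binding protein, which islets make chiefly in α-cells (gene 14473, chr5:89417511-89457898), was at 85.1, 49.7, 50.3 and 52.8 FPKM in CD and 209, 131, 170 and 99.7 in HFD (log2 fold change 1.33, SE 0.27, adjusted p = 0.0425). The groups did not overlap, but CD203 lay well above the other CD islets and HFD217 lowest among the HFD islets, and the call was kept in 2 of the 8 fits without 1 library (highest adjusted p = 0.111, without CD205). Dapl1, a gene with a suppressive role in epithelial proliferation (gene 76747, chr2:59484653-59505020), was at 35.8, 33.2, 29.9 and 35.3 FPKM in CD and 63.3, 76.3, 86.6 and 64.6 in HFD, a ratio of means of 2.17 (log2 fold change 1.08, SE 0.10, adjusted p = 0.00114). All 4 HFD islets lay above all 4 CD islets, and the call was kept in all 8 fits without 1 library.

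Nupr1, a stress-responsive chromatin protein (chr7:126623246-126625470), had 78.5, 54.5, 78.5 and 68.8 FPKM in CD and 94.7, 175, 177 and 216 in HFD (log2 fold change 1.18, SE 0.26, adjusted p = 0.0487), with the highest value in HFD217, and its call was lost after median ratio scaling (adjusted p = 0.0567). Defb1, an antimicrobial β-defensin, had 60.7, 39.7, 59.3 and 40.4 FPKM in CD and 145, 97.6, 117.6 and 82.5 in HFD (log2 fold change 1.13, SE 0.21, adjusted p = 0.0321). Neither gene overlapped between the groups, yet both kept their call in few of the 8 fits without 1 library, 2 for Nupr1 (highest adjusted p = 0.117, without HFD213) and 3 for Defb1 (highest adjusted p = 0.0857, without HFD213). Mum1l1, a gene of the PWWP domain family on the X chromosome, stood at 7.29, 5.80, 7.26 and 7.24 FPKM in CD and 20.1, 16.1, 16.01 and 11.6 in HFD, and S100z, a calcium-binding S100 protein, at 6.43, 3.60, 5.87 and 5.47 and 12.5, 13.9, 12.8 and 9.43. Both passed in all 8 of those fits, with adjusted p = 0.00619 for Mum1l1 and 0.00993 for S100z. The remaining 2 were expressed at low levels. Asb9, an adaptor of a ubiquitin ligase, rose from a mean of 1.115 ± 0.415 to 3.31 ± 0.741 FPKM (SD, n = 4 each), and Rasl10b, a small GTPase, from 2.60 ± 0.641 to 6.27 ± 1.65.

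The other 3 genes past the fold threshold fell. Npy, an inhibitory neuropeptide that is expressed in immature β-cells and in islet nerves (gene 109648, chr6:49822710-49829507), was at 11.3, 12.3, 8.12 and 9.58 FPKM in CD and 4.70, 3.92, 3.51 and 4.01 in HFD, a ratio of means of 0.391 (log2 fold change -1.16, SE 0.12, adjusted p = 0.00114). Its highest HFD value lay below its lowest CD value by a wide gap, and the call held on both scales and without any 1 library. The summed level of 10 Schwann and nerve markers was also lower in every HFD islet, at 20.4 to 22.9 FPKM against 28.4 to 29.5 in CD, and the part of nerves in the level of Npy was not tested. Trpm5, a calcium-activated cation channel that depolarises the β-cell (chr7:143071091-143094642), was at 36.9, 45.0, 47.7 and 48.5 FPKM in CD and 19.5, 23.3, 9.87 and 21.7 in HFD (log2 fold change -1.27, SE 0.26, adjusted p = 0.0421). No HFD islet reached any CD islet, but HFD213 was far below the other 3, and the call was kept in 2 of the 8 fits without 1 library (highest adjusted p = 0.108, without CD205) and was lost after scaling (adjusted p = 0.0765). Tuba1b, an α-tubulin, fell from 38.8, 45.2, 31.1 and 33.6 FPKM in CD to 15.2, 14.4, 19.7 and 23.2 in HFD (log2 fold change -1.01, SE 0.16, adjusted p = 0.0161).

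**Figure D2:**
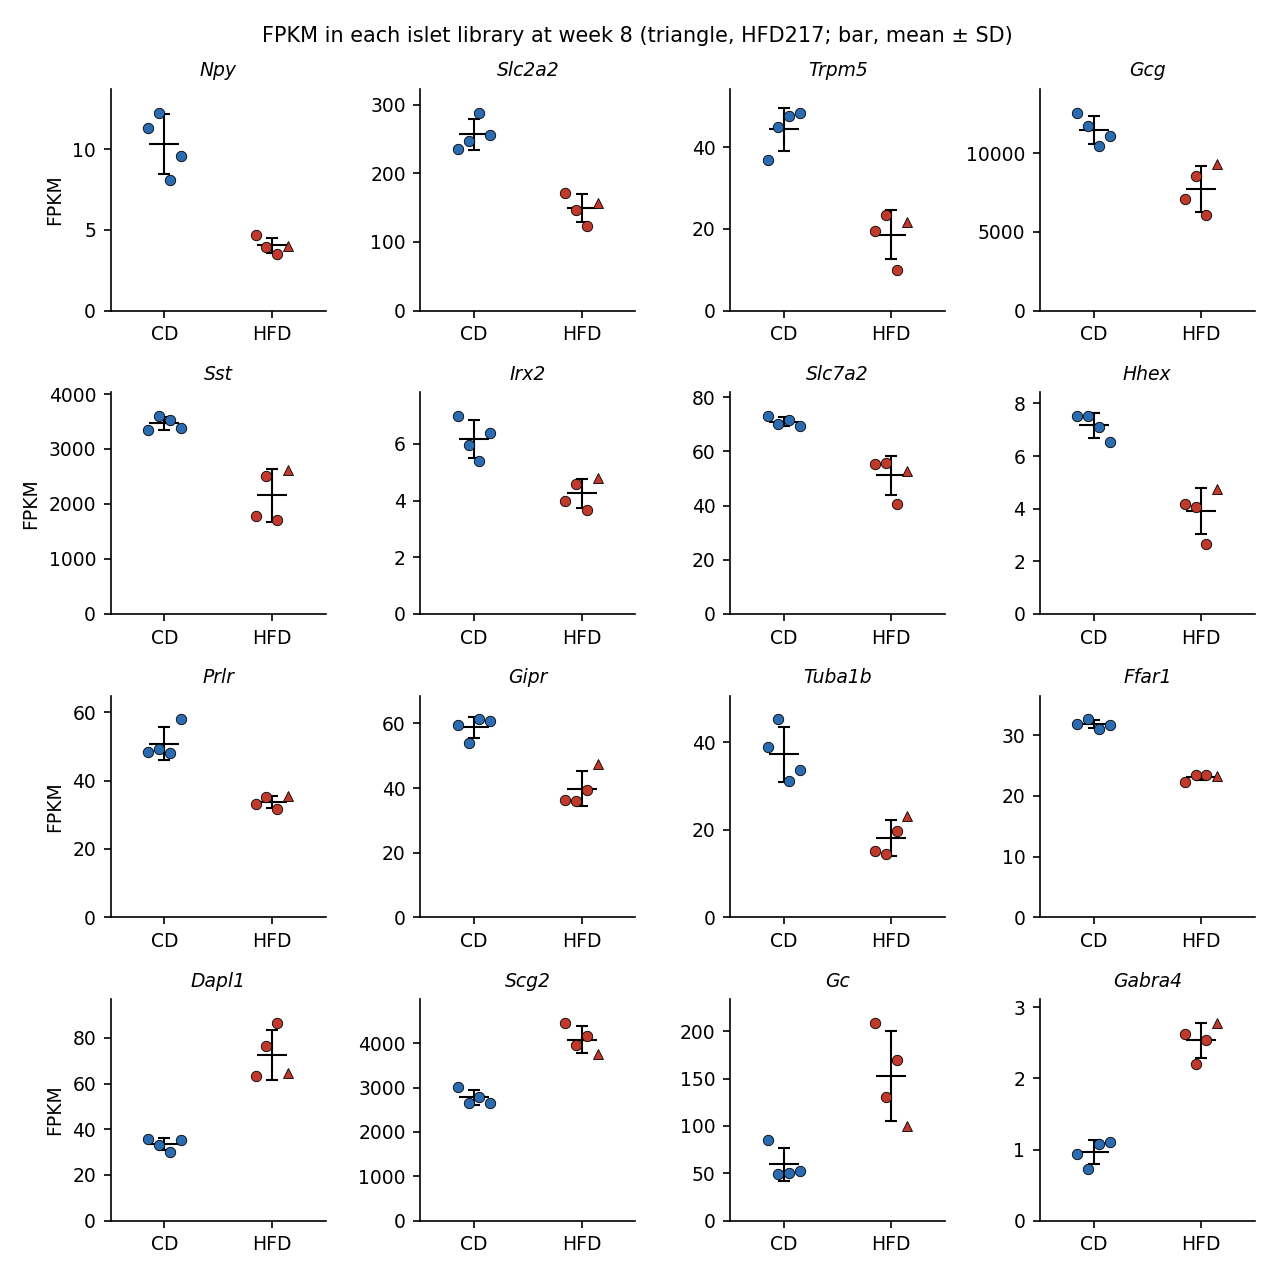
FPKM of 16 genes in each islet library at week 8 (vertical, linear axes from 0), with CD in blue, HFD in red, HFD217 as a triangle and the mean ± SD in black (n = 4 each). The groups do not overlap in any of the 16 panels, from Npy at 3.51 to 4.70 FPKM in HFD against 8.12 to 12.3 in CD, to Gabra4, which was higher in HFD.

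Several genes that mark α-cells fell. In whole islets, fewer cells of a type and less RNA per cell cannot be told apart. Of 15 tested α-cell genes, 5 fell and 1 rose, beside 4.67% lower and 0.602% higher of all genes. The list's median log2 fold change was -0.37, beside -0.11 over all genes tested. Gcg (gene 14526, chr2:62474530-62491679) was at 12588, 11738, 10458 and 11120 FPKM in CD and 7077, 8541, 6071 and 9324 in HFD, a ratio of means of 0.676 (log2 fold change -0.58, SE 0.13, adjusted p = 0.0287). Irx2, an α-cell transcription factor, had 6.98, 5.95, 5.40 and 6.4 FPKM in CD and 4, 4.58, 3.66 and 4.78 in HFD (log2 fold change -0.45, SE 0.09, adjusted p = 0.0258), and Slc7a2, an arginine transporter, 73.0, 70.01, 71.6 and 69.3 in CD and 55.4, 55.8, 40.6 and 52.9 in HFD (log2 fold change -0.48, SE 0.09, adjusted p = 0.0199). In each of these genes every HFD islet was below every CD islet. The 1 member that rose was Gc. After median ratio scaling 2 lower genes and Gc were still called, whereas Gcg (adjusted p = 0.105), Irx2 (0.0779) and Slc7a2 (0.0876) were not; without HFD217, 7 of the 15 were called lower, beside 13.4% of all genes in that fit, and 1 higher. Of the 8 fits without 1 library, Gcg kept its call in 3 (highest adjusted p = 0.0873, without HFD211), Irx2 in 3 (highest adjusted p = 0.0717, without HFD211) and Slc7a2 in 7 (highest adjusted p = 0.0524, without CD208).

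Several δ-cell genes fell as well. Of 12 tested, 4 fell, beside 4.67% of all genes, and none rose, with a median of -0.28. Sst (gene 20604, chr16:23889581-23890844) was at 3340, 3598, 3533 and 3384 FPKM in CD and 1779, 2512, 1714 and 2621 in HFD, a ratio of means of 0.622 (log2 fold change -0.71, SE 0.13, adjusted p = 0.0194). The CD islets were tightly grouped and all above the HFD islets, which split into a lower and a higher pair. Hhex, the transcription factor required for δ-cells, fell from a mean of 7.17 ± 0.462 to 3.91 ± 0.881 FPKM (log2 fold change -0.75, SE 0.12, adjusted p = 0.00993) and was called on both scales. Cd24a and Fam159b fell as well, by 0.45 and 0.41 on the log2 scale. After scaling, Cd24a (adjusted p = 0.110), Fam159b (0.136) and Sst (0.0679) were no longer called. Of the 8 fits without 1 library 5 called Sst (highest adjusted p = 0.0571, without HFD211), and it was called after scaling when HFD217 was also left out (adjusted p = 0.0234). None of 5 tested genes of PP- and ε-cells was called: Ppy was at 3131, 3290, 3204 and 3281 FPKM in CD and 1195, 3148, 2194 and 2265 in HFD (log2 fold change -0.63, SE 0.26, adjusted p = 0.158), with HFD212 inside the CD range.

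The promoters of Sst and Scg2 are shown because they are endocrine genes that moved in opposite directions while both hold the letters of a cyclic AMP response element, and that of Gcg because it holds those of an E-box, the kind of site to which transcription factors such as Neurod1 bind. The sequences are the 250 bases before the transcription start as RefSeq gives it on GRCm38.p6, all on the minus strand, and 467 of the 613 called genes had a promoter in the same RefSeq table, some with several starts. Capitals mark matches to TGACGTCA in Sst (chr16:23890845-23891094) and in Scg2 (chr1:79440027-79440276), and to CAGATG in Gcg (chr2:62483654-62483903), whose RefSeq start lies inside the interval that the deposited table gives for the gene.
Sst: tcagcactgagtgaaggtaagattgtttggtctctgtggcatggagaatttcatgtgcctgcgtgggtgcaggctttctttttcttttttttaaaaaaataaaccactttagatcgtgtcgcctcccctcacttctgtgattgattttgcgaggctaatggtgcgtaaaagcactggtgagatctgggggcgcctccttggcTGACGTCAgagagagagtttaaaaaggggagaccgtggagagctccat
Scg2: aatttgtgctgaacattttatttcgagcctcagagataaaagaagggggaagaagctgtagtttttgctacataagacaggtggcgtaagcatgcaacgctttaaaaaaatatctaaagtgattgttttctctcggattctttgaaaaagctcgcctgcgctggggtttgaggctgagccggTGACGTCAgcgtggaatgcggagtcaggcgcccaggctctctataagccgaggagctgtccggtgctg
Gcg: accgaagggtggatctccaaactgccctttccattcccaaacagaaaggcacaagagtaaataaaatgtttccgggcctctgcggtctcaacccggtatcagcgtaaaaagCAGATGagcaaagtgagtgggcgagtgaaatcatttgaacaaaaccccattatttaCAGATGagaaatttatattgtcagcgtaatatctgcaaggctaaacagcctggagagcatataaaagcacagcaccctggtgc
The element began 48 bases before the start of Sst and 68 bases before that of Scg2, and the E-box of Gcg 139 and 83 bases before its start. Searched on both strands, TGACGTCA occurred in 1.55% of all 32851 promoters of this length, in 2.75% of those of genes tested, in 4.41% of those of genes called higher (3 of 68 promoters) and in 2.53% of those of genes called lower (14 of 553 promoters). CAGATG occurred in 14.4% of all promoters in 9.85% of those of genes tested, in 16.2% of those of genes called higher and in 9.58% of those of genes called lower.

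Several β-cell genes of glucose sensing and maturity fell. Of 19 genes of β-cell maturity, 8 fell and 1 rose, beside 4.67% lower and 0.602% higher of all genes. The median was -0.34, and 5 were called lower and 1 higher after scaling. Npy, a gene of immature β-cells, was on this list and among both the 8 and the 5, and its fall is not one of a maturity gene. Slc2a2, the glucose transporter GLUT2 (gene 20526, chr3:28697903-28728361), was at 235, 246, 288 and 256 FPKM in CD and 171, 146, 123 and 157 in HFD (log2 fold change -0.78, SE 0.10, adjusted p = 0.00475). Its highest HFD value was far below its lowest CD value, and it was called in every fit without 1 library and on both scales. G6pc2, the islet glucose-6-phosphatase, which turns glucose-6-phosphate back into glucose, was the member that rose, from 1208, 962, 1152 and 1256 FPKM in CD to 1426, 1467, 1571 and 1858 in HFD (log2 fold change 0.46, SE 0.11, adjusted p = 0.0329), with no overlap and HFD217 highest, and its call was kept in 1 of the 8 fits without 1 library (highest adjusted p = 0.0753, without HFD213). Ucn3, a late marker of β-cell maturity, was at a mean of 360 ± 38.7 in CD and 323 ± 40.5 in HFD (log2 fold change -0.16, SE 0.10, adjusted p = 0.305), with overlapping values.

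Of 27 tested genes of glucose uptake and glycolysis, 4 fell (Slc2a2, Gpd2, Pfkfb2 and Pcx) and 1 rose (G6pc2), with a median of -0.18. Of all genes, 4.67% were called lower and 0.602% higher. Gpd2, the mitochondrial glycerol-3-phosphate dehydrogenase of a redox shuttle, fell from a mean of 14.9 ± 3.27 to 8.36 ± 1.13 FPKM (log2 fold change -0.75, SE 0.14, adjusted p = 0.0224). Pcx, pyruvate carboxylase, which refills the citrate cycle, had 42.7, 46.0, 41.3 and 40.5 FPKM in CD and 31.3, 33.8, 32.8 and 34.1 in HFD (log2 fold change -0.36, SE 0.06, adjusted p = 0.0120). Pfkfb2, which makes the activator of phosphofructokinase, fell by 0.47 on the log2 scale. After scaling Slc2a2 was the 1 lower gene of the list still called, and Gpd2 (adjusted p = 0.0533) and Pcx (adjusted p = 0.0672) did not pass. Txnip, a glucose-induced inhibitor of thioredoxin, was at 681, 89.8, 90.0 and 152 FPKM in CD and 712, 1097, 124 and 558 in HFD, so that its high mean in HFD was within the spread (adjusted p = 0.328).

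Mitochondrial genes gave few calls, beside 5.27% of all genes called in either direction. Of 34 tested genes of the citrate cycle and shuttles 1 rose, the NADP-dependent malic enzyme Me3, at 2.82, 1.69, 1.78 and 1.59 FPKM in CD and 3.46, 2.94, 5.03 and 3.45 in HFD (log2 fold change 0.67, SE 0.15, adjusted p = 0.0338), and of 71 tested subunits of the respiratory chain and ATP synthase 2 fell, among them Ndufs5 of complex I. The medians of both lists, -0.07 and -0.08, were close to that of all genes, and no subunit was called after scaling. Ndufs5 had 72.3, 69.0, 72.1 and 77.7 FPKM in CD and 60.2, 61.3, 56.7 and 62.5 in HFD (log2 fold change -0.27, SE 0.06, adjusted p = 0.0338) and kept its call in 1 of the 8 fits without 1 library (highest adjusted p = 0.0950, without CD208).

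Of 26 tested islet receptors, 6 fell, beside 4.67% of all genes, none rose and 20 did not pass. The list's median was -0.17 against -0.11 over all genes, and 4 receptors were still called after scaling. Prlr, the prolactin receptor, which drives β-cell growth in pregnancy, was at 48.3, 49.3, 47.99 and 57.9 FPKM in CD and 33.1, 35.1, 31.8 and 35.5 in HFD (log2 fold change -0.57, SE 0.07, adjusted p = 0.00475). Gipr, the receptor of the incretin GIP, was at 59.5, 54.0, 61.2 and 60.6 in CD and 36.3, 35.8, 39.4 and 47.5 in HFD (log2 fold change -0.56, SE 0.09, adjusted p = 0.00870), and Glp1r, that of GLP-1, at 107, 127, 106.4 and 117 and 91.7, 63.1, 73.9 and 91.1 (log2 fold change -0.52, SE 0.12, adjusted p = 0.0334). Prlr and Gipr kept their call in all 8 fits without 1 library, Glp1r in 2 of them (highest adjusted p = 0.0828, without HFD213), and Glp1r was lost after scaling (adjusted p = 0.0764). Ffar1, a receptor for long-chain fatty acids that potentiates insulin release, had a narrow range in both groups, 31.9, 32.6, 31.0 and 31.8 FPKM in CD and 22.3, 23.4, 23.5 and 23.4 in HFD (log2 fold change -0.44, SE 0.05, adjusted p = 0.00382). Its neighbour on chromosome 7, Ffar3, a receptor for short-chain fatty acids, fell from a mean of 7.85 ± 1.08 to 5.24 ± 0.226. Igf1r fell with 2 other genes of the 30 tested for insulin signaling, Akt1 and Igfbp5. Igfbp5, a binding protein of insulin-like growth factors, was the one of these called after scaling, at 5.94, 6.05, 5.33 and 4.64 FPKM in CD and 2.86, 2.85, 2.75 and 3.08 in HFD (log2 fold change -0.74, SE 0.09, adjusted p = 0.00382).

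Among 22 tested β-cell transcription factors, 3 fell by small amounts, beside 4.67% of all genes, and none rose, with a median of -0.19. Neurod1, which activates the insulin genes, had 75.7, 78.2, 74.8 and 73.0 FPKM in CD and 56.4, 50.9, 58.0 and 64.5 in HFD (log2 fold change -0.39, SE 0.07, adjusted p = 0.0171), and Tshz1 and Myt1 fell by 0.38 and 0.34 on the log2 scale. None of them was called after scaling. Mafa, the regulator of the insulin genes in mature β-cells, was at 105.8, 169, 76.7 and 122 FPKM in CD and 37.8, 36.7, 67.9 and 74.6 in HFD, and although the groups did not overlap and the log2 fold change was -1.13, the spread was wide and it did not pass (adjusted p = 0.0943). Pdx1, the master regulator of pancreatic development, was at 74.7, 77.3, 79.3 and 72.8 and 53.0, 34.4, 74.2 and 68.7 (adjusted p = 0.211).

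Of 14 tested genes linked to loss of β-cell identity, 1 rose, Myc, and 2 fell, Cd24a and the monoamine oxidase Maob. Of all genes, 0.602% were called higher and 4.67% lower. Myc, a growth-promoting transcription factor, was at 1.91, 1.52, 2.08 and 1.51 FPKM in CD and 2.93, 2.60, 5.90 and 3.47 in HFD (log2 fold change 0.74, SE 0.18, adjusted p = 0.0449), with HFD213 highest, and kept its call in 3 of the 8 fits without 1 library (highest adjusted p = 0.111, without CD205). None of the 3 was called after scaling. Aldh1a3, a retinaldehyde dehydrogenase used as a mark of failing β-cells, was at 2.58, 2.96, 2.35 and 1.35 FPKM in CD and 16.6, 7.22, 12.1 and 3.50 in HFD. Every HFD islet was above every CD islet, with a log2 fold change of 1.56, but HFD217 was barely so, and the gene did not pass with it (adjusted p = 0.0853) but passed without it (0.0118). With HFD217 kept, it also passed in the fit of all 48 islet libraries and in that without trend and robust variances. Serpina7, a carrier of thyroid hormone, was at 8.71, 2.57, 5.68 and 5.52 FPKM in CD and 16.8, 13.6, 32.9 and 17.9 in HFD and also missed the threshold (adjusted p = 0.0559).

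Of 26 tested potassium and calcium channel genes 3 fell, beside 4.67% of all genes, and 23 did not pass. Those that fell were Trpm5, the calcium channel subunit Cacna1a (log2 fold change -0.38, SE 0.09, adjusted p = 0.0331) and the calcium release channel Itpr1 (log2 fold change -0.38, SE 0.09, adjusted p = 0.0323), and none of them was called after scaling. The KATP channel genes were not among them: Kcnj11 was at a mean of 52.6 ± 4.09 FPKM in CD and 47.4 ± 5.17 in HFD (adjusted p = 0.249), and Abcc8 at 272 ± 8.91 and 263 ± 7.60 (adjusted p = 0.611), its small difference changing sign with the scale. Of 31 tested exocytosis genes 1 fell, Stxbp3, a Munc18 protein that holds syntaxin for vesicle fusion, at 14.7, 15.5, 15.5 and 14.3 FPKM in CD and 11.2, 10.8, 10.9 and 11.8 in HFD (log2 fold change -0.40, SE 0.06, adjusted p = 0.00870). Without HFD217, 8 of the 31 were called lower, beside 13.4% of all genes in that fit, among them Stx1a, Vamp2 and Rab3a, and with scaling as well Stxbp3 alone was.

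Of 16 tested genes of prohormone processing and granule cargo, 1 rose, 1 fell and 14 did not pass. Of all genes, 0.602% were called higher and 4.67% lower. Scg2, secretogranin II, rose from 3013, 2659, 2793 and 2644 FPKM in CD to 4457, 3959, 4150 and 3759 in HFD (log2 fold change 0.55, SE 0.08, adjusted p = 0.00730). It was called on both scales and in all 8 fits without 1 library. Slc30a8, the zinc transporter of the insulin granule, fell from 524, 461, 577 and 533 to 396, 387, 351 and 413.8 FPKM (log2 fold change -0.43, SE 0.08, adjusted p = 0.0182) and was not called after scaling (adjusted p = 0.104). The list's median was 0.05. Iapp, the gene of amylin, was at 27761, 24450, 23963 and 27282 FPKM in CD and 38682, 32685, 32864 and 29538 in HFD, and its groups did not overlap, but it was just outside the threshold with all libraries (adjusted p = 0.0529).

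Insulin took more of the RNA in 3 of the 4 HFD islets. Ins1 was at 178825, 183664, 185371 and 187858 FPKM in CD and 230246, 231038, 218336 and 166073 in HFD, and Ins2 at 462107, 475048, 490383 and 493082 and 571216, 579845, 571319 and 452682. In both genes HFD211, HFD212 and HFD213 were above every CD islet and HFD217 was below every CD islet, and neither passed with all 8 libraries (adjusted p = 0.274 for Ins1 and 0.275 for Ins2). The insulin share was 66.7% ± 0.918 in CD and 69.1% ± 4.16 in HFD (SD, n = 4 each), a difference of 2.44 percentage points that an exact permutation test, two-sided, did not separate from 0 (p = 0.286, the smallest possible being 0.0286). Without HFD217 the difference was 4.50 points (exact permutation p = 0.0286, then the smallest that 4 against 3 libraries can give). All 3 genes of insulin and amylin were called higher without HFD217. Because HFD217 was set apart partly by its low insulin share, these results without it are not independent evidence of a rise. The coding sequences of Ins1 and Ins2 are alike, so that how reads were shared between them is uncertain.

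In cholesterol genes HFD217 again stood apart from the other HFD islets. Of 26 tested genes of cholesterol synthesis and uptake none rose with all 8 libraries, although the list's median was 0.33 against -0.11 over all genes. Without HFD217, 18 of the 26 were called higher, read against 1.80% of 11750 genes called higher in that fit, and 13.4% were called lower and 15.2% in either direction. Insig1, which retains the sterol sensor in the endoplasmic reticulum, was at 46.0, 46.0, 47.2 and 49.8 FPKM in CD and 134, 83.5, 98.3 and 49.1 in HFD. Idi1, an isomerase of the mevalonate pathway, was at 5.06, 8.13, 4.32 and 6.72 in CD and 21.0, 12.4, 12.3 and 5.80 in HFD, and Hmgcs1, the synthase at its entry, at 14.6, 16.4, 14.8 and 18.1 and 44.1, 26.0, 27.9 and 14.95. In all 3 genes HFD217 lay inside the CD range and the other 3 HFD islets lay above it. Because HFD217 was set apart partly by the genes called without it, the calls without it are not independent evidence of a rise.

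The same arrangement held for Msmo1, at 30.5, 39.8, 31.0 and 36.6 FPKM in CD and 88.2, 58.1, 59.5 and 37.1 in HFD, and for Sqle, squalene epoxidase, at 44.5, 47.7, 41.9 and 45.9 and 64.6, 50.7, 56.7 and 45.8. With all libraries the adjusted p was 0.111 for Insig1, 0.107 for Msmo1 and 0.105 for Sqle, and without HFD217 it was 0.00411, 0.0113 and 0.0297. The values without HFD217 are, again, not independent evidence of a rise. The 1 member called with all libraries was Abcg1, a cholesterol exporter, which fell from 12.7, 12.5, 12.1 and 11.3 FPKM in CD to 7.92, 7.59, 7.60 and 9.96 in HFD (log2 fold change -0.51, SE 0.09, adjusted p = 0.0106). HFD211, with the lowest acinar sum, had the highest levels of Insig1, Idi1, Hmgcs1, Msmo1 and Sqle. HFD213, with a higher acinar sum than HFD212, was above HFD212 in all of these but Idi1. The part of acinar RNA in these values was not tested.

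**Figure D3:**
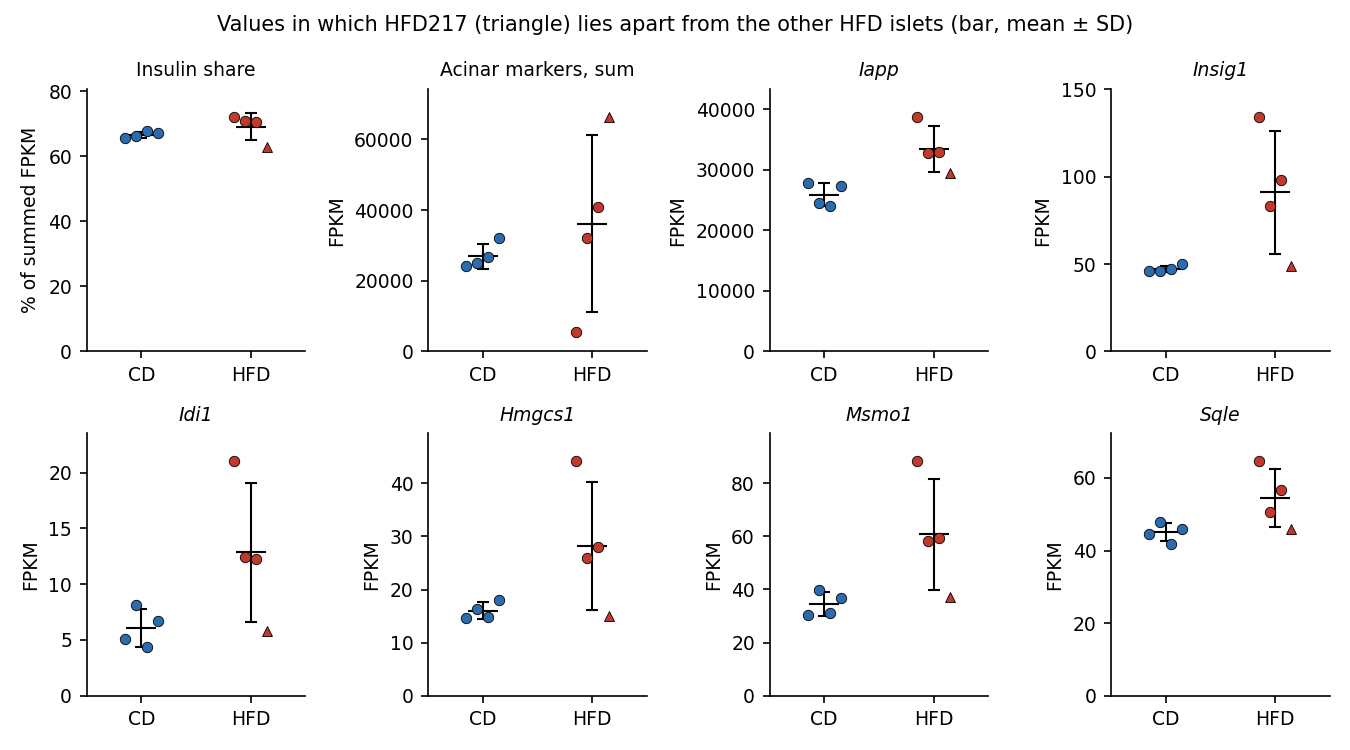
Insulin share in percent of the summed FPKM, summed FPKM of the acinar markers, and FPKM of Iapp, Insig1, Idi1, Hmgcs1, Msmo1 and Sqle in each library at week 8, with CD in blue, HFD in red, HFD217 as a triangle and the mean ± SD in black (n = 4 each; axes start at 0). HFD217 is the lowest HFD library in each panel except the acinar sum, where it is the highest at 66299 FPKM.

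Other lipid genes showed single calls, beside 5.27% of all genes called in either direction. Srebf1, a transcription factor of lipid synthesis, fell from a mean of 29.4 ± 1.94 to 23.7 ± 1.31 FPKM (log2 fold change -0.30, SE 0.07, adjusted p = 0.0307), the 1 call among 27 tested genes of fatty acid synthesis and storage. Acsl5, an acyl-CoA synthetase, fell from 17.6 ± 0.720 to 14.3 ± 0.908, the 1 call among 40 tested genes of fatty acid uptake and oxidation. Neither was called after scaling, and the medians of the lists, -0.0028 and -0.0039, lay above that of all genes.

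Of 26 tested tubulin and microtubule genes 4 fell, beside 4.67% of all genes, and none rose, with a median of -0.32. Beside Tuba1b, the β-tubulin genes Tubb3, at 15.7, 16.5, 14.01 and 14.3 FPKM in CD and 5.61, 8.71, 10.1 and 11.4 in HFD, Tubb5, at 34.3, 38.0, 29.1 and 29.5 and 16.5, 16.2, 24.7 and 25.1, and Tubb4a, at 7.87, 8.52, 7.25 and 6.92 and 3.62, 3.60, 5.54 and 6.34, were called (log2 fold changes -0.73, -0.66 and -0.61). In each of them the HFD islets were below the CD islets, with HFD217 nearest to CD. Without HFD217, 11 of the 26 were called lower, beside 13.4% of all genes in that fit, and after scaling with all libraries Tuba1b alone was called. In fits without 1 library, Tuba1b kept its call in all 8, Tubb3 in 2 (highest adjusted p = 0.120, without CD205), and Tubb5 and Tubb4a in 1 each. Tuba1a was at 141, 168, 114.5 and 146 FPKM in CD and 68.9, 65.6, 100.8 and 107 in HFD and missed the threshold narrowly (adjusted p = 0.0502). Tubulin genes are near-identical over long stretches and the interval given for Tuba1a (chr15:98931427-98953628) contains that of Tuba1b (chr15:98931427-98934560), so that the division of reads among them is uncertain.

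A few DNA replication genes were lower. Of 36 tested genes of the cell cycle and DNA replication 3 fell, beside 4.67% of all genes, and none rose, with a median of -0.20. All 3 were subunits of the helicase that opens replication origins. Mcm6 was at 6.92, 4.88, 5.15 and 4.91 FPKM in CD and 2.91, 3.58, 2.90 and 3.25 in HFD (log2 fold change -0.63, SE 0.11, adjusted p = 0.0107), Mcm4 at 3.49, 2.90, 2.85 and 2.79 and 2.26, 1.75, 1.65 and 1.90 (log2 fold change -0.47, SE 0.10, adjusted p = 0.0240), and Mcm2 fell by 0.42 on the log2 scale. Mcm6 was the one called after scaling. CD203 was the highest library in all 3 genes. Hmgn2, a chromatin protein abundant in growing cells, fell from 96.1 ± 10.2 to 62.1 ± 2.96 FPKM (log2 fold change -0.62, SE 0.08, adjusted p = 0.00475).

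Of 13 tested genes of antigen processing by MHC class I, 6 fell, beside 4.67% of all genes, none rose and 7 did not pass, and the median was -0.33 against -0.11 over all genes. They were the inducible proteasome subunits Psmb8, Psmb9 and Psmb10, the activator subunits Psme1 and Psme2, and H2-Q4, a class I heavy chain whose reads may be shared with close relatives. Psmb8 was at 10.4, 8.12, 7.84 and 8.11 FPKM in CD and 5.34, 5.36, 6.75 and 4.41 in HFD (log2 fold change -0.58, SE 0.11, adjusted p = 0.0203), and Psme1 at 33.0, 28.5, 28.2 and 28.7 and 22.8, 22.3, 23.7 and 23.8 (log2 fold change -0.34, SE 0.06, adjusted p = 0.0177). In Psmb9 the groups overlapped through HFD213, and none of the 6 was called after scaling. Their calls were kept in 1 to 6 of the 8 fits without 1 library, Psmb8 in 5 (highest adjusted p = 0.0591, without HFD212). Irf1, which induces several of these genes, fell from 16.5 ± 1.02 to 12.8 ± 1.83 FPKM (log2 fold change -0.34, SE 0.09, adjusted p = 0.0464), the 1 call among 21 tested interferon-stimulated genes. No gene of MHC class II (5 tested) or of chemokines and cytokines (15 tested) was called, and none of the T cell markers reached the level needed for a test.

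Stress genes were mostly uncalled, beside 5.27% of all genes called in either direction. Of 46 tested genes of the unfolded protein response and ER chaperones 1 fell, Derl2, a channel component for the disposal of misfolded proteins, from 24.8, 22.0, 20.2 and 24 FPKM in CD to 15.5, 15.95, 13.1 and 15.4 in HFD (log2 fold change -0.57, SE 0.08, adjusted p = 0.00730), with a median of -0.10 over the list. Of 22 tested genes of the integrated stress response, Nupr1 rose and Atf5 and Vldlr fell, Atf5 with HFD217 inside the CD range, and none was called after scaling. None of 37 tested genes of COPI and COPII transport was called. The 1 call among 33 antioxidant and metallothionein genes was Gstm1, a glutathione transferase, which fell from 42.1 ± 3.94 to 29.4 ± 2.62 FPKM (log2 fold change -0.50, SE 0.08, adjusted p = 0.00993). No immediate early gene (15 tested) and no circadian clock gene (19 tested) was called.

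**Figure D4:**
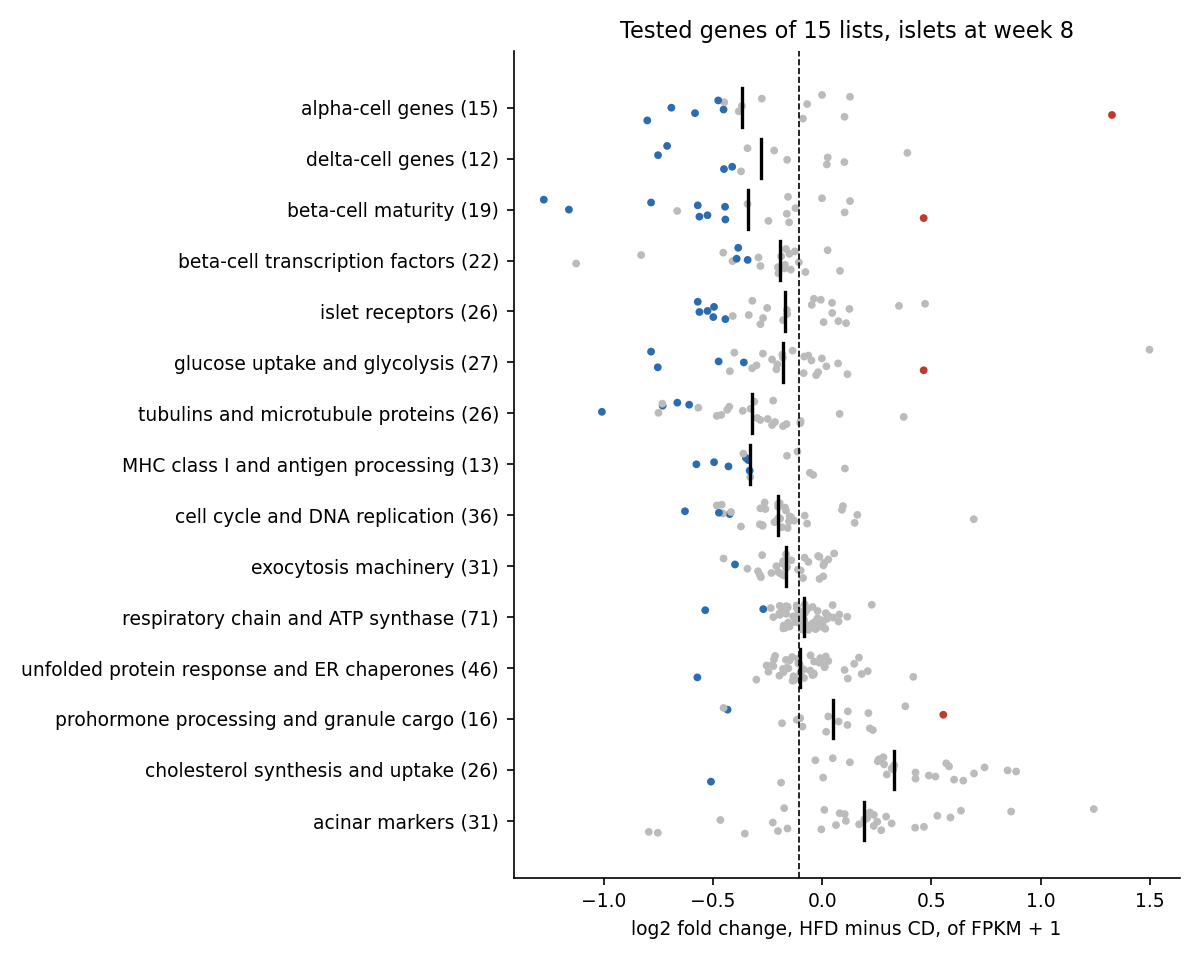
Log2 fold change of HFD minus CD on the log2(FPKM + 1) scale (horizontal) for the tested genes of 15 lists (number tested in brackets), with genes called higher in red, called lower in blue and not called in grey. Black bars are list medians and the dashed line is the median of all genes tested, -0.11; the bars of α-cell, β-cell maturity, tubulin and MHC class I genes lie farthest below it and that of cholesterol genes farthest above it.

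Further genes with large changes came from many functions. Among those higher, Gabra4, a subunit of the GABA-A receptor through which islet cells sense GABA, was at 0.94, 0.73, 1.08 and 1.11 FPKM in CD and 2.62, 2.2, 2.54 and 2.78 in HFD (log2 fold change 0.85, SE 0.10, adjusted p = 0.00364). Gucy2c, the guanylin receptor, was at 7.90, 8.13, 9 and 8.51 and 18.4, 20.1, 17.0 and 10.9 (log2 fold change 0.88, SE 0.16, adjusted p = 0.0202), with HFD217 nearest to CD. Gsto2, a glutathione transferase, and Rasd2, a Ras-like GTPase, rose by 0.98 and 0.93 on the log2 scale. The deacetylase Hdac9, the membrane protein Tmem255a, the acid-sensing channel Asic2, the cation channel Trpc4 and the vesicle GTPase Rab26 rose by between 0.63 and 0.78, and in none of these genes did the groups overlap. Hdac9 (adjusted p = 0.0577) and Trpc4 (0.0577) lost their calls after scaling. In fits without 1 library, Rab26 and Tmem255a kept their calls in all 8, whereas Asic2 kept its in 2 (highest adjusted p = 0.0892, without CD208), Hdac9 in 2 (highest adjusted p = 0.107, without HFD213) and Trpc4 in 1 (highest adjusted p = 0.102, without HFD212).

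Among the lower genes, Car15, a carbonic anhydrase, was at 14.5, 15.3, 11.9 and 12.3 FPKM in CD and 6.80, 7.45, 6.79 and 5.88 in HFD (log2 fold change -0.90, SE 0.09, adjusted p = 0.00114), and Agt, angiotensinogen, at 10.7, 11.4, 10.7 and 11.1 and 6.54, 5.92, 6.11 and 6.99 (log2 fold change -0.70, SE 0.07, adjusted p = 0.00114). Both were called without any 1 library and on both scales. Sfrp5, a secreted inhibitor of Wnt signaling, was at 45.5, 41.7, 45.9 and 39.2 FPKM in CD and 22.6, 22.1, 28.4 and 29.9 in HFD, and Fam151a at 93.7, 95.5, 88.7 and 96.9 and 54.6, 55.4, 39.5 and 64.0, a gap between the groups in each. Kcnj12, an inward rectifier potassium channel, fell by 0.85, Gfra3, a receptor for the neurotrophic factor artemin, by 0.78, and Stxbp5l, tomosyn-2, an inhibitor of vesicle fusion, by 0.76, with HFD217 close to CD in Stxbp5l. Gm281, Adam32, Epb41l4a, T2, Tmsb15b2, Lrrc16b, Col6a3, Tppp3, Ttc28 and Inmt fell by between 0.78 and 0.96. Kcnj12, Gfra3, Stxbp5l, Col6a3 and Inmt were not called after scaling. Tmsb15b2 has near-identical copies, and Col6a3 and Inmt had means under 1 FPKM in HFD.

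Eef1a2, an elongation factor of excitable cells, fell from 9.01 ± 0.926 to 5.02 ± 0.816 FPKM (log2 fold change -0.74, SE 0.10, adjusted p = 0.00619), Rbm3, a cold-inducible RNA-binding protein, from 47.0 ± 5.42 to 28.3 ± 2.84 (log2 fold change -0.71, SE 0.09, adjusted p = 0.00475), and Rpia, an enzyme of the pentose phosphate pathway, from 17.2 ± 3.03 to 10.1 ± 0.449 (log2 fold change -0.70, SE 0.10, adjusted p = 0.00730). All 3 were called in each fit without 1 library.

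Of 23 tested genes that the study names as key genes of its islet networks, 3 rose and none fell: P3h2, a collagen prolyl hydroxylase, from 2.01, 1.70, 1.75 and 1.70 FPKM in CD to 3.03, 2.92, 3.33 and 3.66 in HFD (log2 fold change 0.60, SE 0.09, adjusted p = 0.00734), Lmo1, a LIM-only transcriptional regulator, from 1.68, 1.78, 1.11 and 1.06 to 3.16, 3.02, 2.98 and 2.17 (log2 fold change 0.68, SE 0.13, adjusted p = 0.0171), and Cpne4, a calcium-dependent membrane-binding protein, from a mean of 1.003 ± 0.199 to 1.72 ± 0.214 (log2 fold change 0.45, SE 0.10, adjusted p = 0.0338). All 3 were called after scaling, and 0.602% of all genes were called higher at week 8. The study chose those genes on a set of libraries that includes these, so that the count is not independent evidence of a direction. Of its 24 tested genes of glucose-stimulated insulin secretion 5 fell (Slc2a2, Gcg, Sst, Pcx and Cacna1a), beside 4.67% of all genes. Of 28 other islet genes that the study names 1 fell (Glp1r).

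Markers of other cell types gave few calls, beside 4.67% lower and 0.602% higher of all genes. None of the tested markers of acinar (31), endothelial (13), stromal (11), macrophage (14), B (1) and fat cells (1) or of blood (4 globins) was called. Of 12 tested ductal markers 1 fell, Anxa5, and Krt19, a keratin of duct cells, was at 4.27, 4.82, 2.94 and 2.63 FPKM in CD and 0.49, 1.98, 2.25 and 1.69 in HFD (adjusted p = 0.0818). Dcn, decorin of fibroblasts, was at 12.7, 9.63, 3.84 and 5.53 and 0.97, 3.38, 3.65 and 3.15 (adjusted p = 0.131). Of 4 tested Schwann and nerve markers 1 fell, Gap43, from 4.38, 3.69, 3.34 and 3.51 FPKM in CD to 1.68, 2.60, 1.69 and 2.43 in HFD (log2 fold change -0.62, SE 0.12, adjusted p = 0.0182). Apart from that list, the summed levels overlapped between the groups, at 442 to 617.4 FPKM in HFD against 564 to 619 in CD for ductal markers. The adipocyte gene Retn and the globin gene Hbb-b2 were at 0 in all 8 libraries. After median ratio scaling, no ductal and no Schwann or nerve marker was called. The part of these cell types in the called genes was not tested.

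The diet effect of week 8 was set beside that of the weeks around it, for which other mice were used. By the same fit on each week's own 8 libraries, no gene was called at week 4 (854 had an unadjusted p under 0.05) and 246 higher and 265 lower genes were called at week 12. Of the 613 genes called at week 8, 72.9% had a fold change of the same direction at week 4 and 79.4% at week 12. Called in the same direction at week 12 were 90 of them, 14.7% of the genes called at week 8 and 17.6% of those called at week 12, being 24 of the 70 higher genes and 66 of the 543 lower genes. In 1 fit of all 48 islet libraries, the effect of week 8 differed from that of week 12 for 233 of 12378 genes (1.88%), below it for 194 and above it for 39, and from that of week 4 for 3 genes (0.0242%). Those 3, Meox1, Rrp15 and Yrdc, had a lower diet effect at week 8 than at week 4. From week 12, 74 genes differed without CD205 and 378 without CD207, and from week 4 none differed without CD203 and 309 without HFD217. After median ratio scaling 65 genes differed from week 12, 43 above and 22 below, and 48 from week 4.

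Genes of α- and δ-cells and Npy were lower at week 8 and had larger differences at later weeks. At weeks 4, 8, 12 and 24 the log2 fold change of Gcg was -0.15, -0.58, -1.41 and -2.93, and that of Sst -0.22, -0.71, -1.21 and -2.66. Npy went from -0.81 at week 4 through -1.16 to -1.82 at week 12. The difference between weeks 8 and 12 was not called for Gcg (adjusted p = 0.183), Sst (0.446) or Npy (0.459).

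Some β-cell genes had a lower fold change at week 8 than at week 12. In the order of weeks 4, 8 and 12, the log2 fold change of Slc2a2 was -0.30, -0.78 and -0.03, with Prlr at 0.26, -0.57 and 0.07, and Trpm5 at 0.11, -1.27 and -0.08. Although all 3 were near 0 at week 12, the difference between weeks 8 and 12 was not called for them (adjusted p = 0.185, 0.160 and 0.306). Nor was a fall confined to week 8: Slc2a2 was at -0.68 at week 20 and Trpm5 at -0.76 at week 24. Neither was called in those weeks (adjusted p = 0.116 and 0.675). The difference between weeks 8 and 12 was called for other genes. It was called for Slc30a8, by -0.59 (SE 0.11, adjusted p = 0.00669), Ucn3, by -0.60 (adjusted p = 0.0210), Srebf1, by -0.68 (adjusted p = 0.00710), Abcg1, by -0.77 (adjusted p = 0.00191), and Pfkfb2, Papss2, Maob, Stxbp3, Anxa5, Ndufs5 and P3h2. Ucn3 was uncalled at week 8 and higher at week 12 (0.44, adjusted p = 0.0402).

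Among the largest differences from week 12 below 0 were those of Prss53, a serine protease, by -1.39, of Zc3h3, by -1.22, of Gm281, by -1.13, and of Mt3, a metallothionein, by -1.02. Prss53 had means of 328 FPKM in CD and 175 in HFD at week 8, and 275 and 371 at week 12; it was not called at week 8 itself (adjusted p = 0.0536), nor was Zc3h3 (0.0638). Among those above 0 were Try5, a trypsinogen with close paralogs, by 2.64, and Cabp2, Amy1 and Hsd17b13, each by 1.64. After median ratio scaling Try5 (adjusted p = 0.0718), Cabp2 (0.0746), Amy1 (0.0629), Hsd17b13 (0.0582) and Zc3h3 (0.0607) were not called, whereas Prss53, Gm281 and Mt3 were. With the 16 libraries of weeks 8 and 12 alone, Gm281 was the one of these genes called (adjusted p = 0.0275). Try5 is an acinar gene and Amy1 an amylase. Try5 was at 445, 378, 336 and 518.2 FPKM in CD and 258, 1536, 1525 and 1528 in HFD at week 8.

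**Figure D5:**
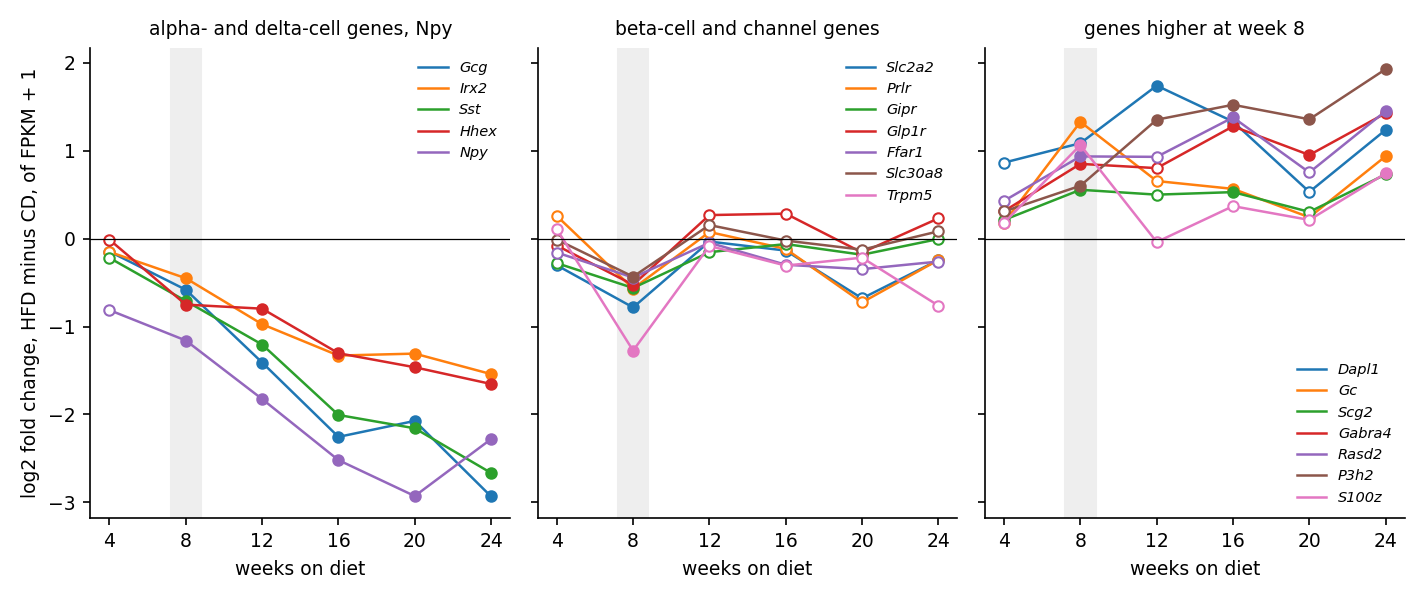
Log2 fold change of HFD minus CD on the log2(FPKM + 1) scale (vertical) against weeks on the diet (horizontal) for 5 genes in the left panel and 7 in each of the other two, each week from its own 4 HFD and 4 CD mice, with filled points where the gene was called in that week and week 8 shaded. The genes in the left panel lie lower at weeks 16 to 24 than at week 8, those of the middle panel have their lowest point at week 8 except Prlr (week 20), and those of the right panel stay at or above 0 after week 8 except S100z at week 12 (-0.04).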

How the data were processed

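The deposited table gives 1 FPKM value per gene and library, made by the authors from single-mouse poly(A) libraries. The submitters' processing notes name HISAT2 2.0.4, Bowtie2 2.2.5, RSEM 1.1.12, DESeq2 and the build GRCm38.p5, without saying what each did. Columns with the authors' own comparisons, which name DEGseq, hold fold changes and p-values and were not used. The FPKM values carry no read counts, so the depth of each library is unknown, and FPKM is relative to the library's total, so that 1 abundant gene can lower the others. The strand setting of the counting was not given in the sources used here.

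Of 21990 genes, 1835 had no values. Genes with at least 1 FPKM in 4 or more of the 8 libraries were tested with limma 3.58.1 (R 4.3.3; trend and robust variances) on log2(FPKM + 1), with Benjamini-Hochberg adjustment across all 11636 genes. A fold change on this scale understates the change of genes with low FPKM. Each other week was fitted on its own 8 libraries, and differences between weeks came from 1 fit of the 48 islet libraries. The insulin share was compared by an exact permutation test. The script was tested on simulated data. Each mouse is 1 replicate, so p-values cover the spread between mice. No 2 of the 8 libraries shared values beyond 0.524% of genes.

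Genes were named when past the adjusted p and a log2 fold change of 1, when among the 20 highest or 20 lowest called genes without overlap, when in 1 of 44 lists of pathways and cell markers (837 genes tested), or when among the 5 highest or 5 lowest differences between weeks. Eef1a2, Agt, Sfrp5, Rbm3, Rpia and Hmgn2 were added after their values were seen. The genes and lists were chosen with earlier results of these data known. Alternatives were another pseudocount (0.1), other filters, median ratio scaling, insulin left out of the total, and each library left out. Some genes that the rule would name are not reported here.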

Additional observations from a re-analysis of the deposited data

Results flagged for a closer look

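In 21 of 252 groups of 4 libraries examined, 1 library lay far from the other 3 of its diet. Chance gives this in about 1 of 20 groups. CD203 was that library in 9 of them, with Gc at 85.1, Mcm4 at 3.49, Mcm6 at 6.92, Me3 at 2.82, P3h2 at 2.01, Psmb8 at 10.4, Psme1 at 33.0 and Txnip at 681 FPKM, all above the other CD islets, and Stxbp5l at 2.52 FPKM, below them. HFD217 was that library for Abcg1 (9.96 FPKM), Atf5 (137) and Stxbp5l (2.24), each above the other HFD islets, and for Ins2 (452682), below them. HFD211 lay apart for Cpne4 (2.04 FPKM, above), Ffar1 (22.3, below) and the acinar gene Try5 (258, below). The others were CD205 for Igf1r (10.5 FPKM, above) and Mum1l1 (5.80, below), CD208 for Prlr (57.9, above), HFD212 for Col6a3 (1.41, above) and HFD213 for Psmb9 (6.05, above).

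The diet effect differed between weeks for 22 genes named here, by limma on the 48 islet libraries. Against week 12, the difference (week 8 minus week 12, log2 scale) was above 0 for Try5 (2.64), Cabp2 (1.64), Amy1 (1.64) and Hsd17b13 (1.64). It was below 0 for Prss53 (-1.39), Zc3h3 (-1.22), Gm281 (-1.13), Mt3 (-1.02), Abcg1 (-0.77), P3h2 (-0.75), Maob (-0.73), Papss2 (-0.71), Pfkfb2 (-0.69), Srebf1 (-0.68), Ucn3 (-0.60), Slc30a8 (-0.59), Anxa5 (-0.45), Ndufs5 (-0.42) and Stxbp3 (-0.35). Against week 4 it was below 0 for Rrp15 (-0.75), Yrdc (-0.69) and Meox1 (-0.61). After median ratio scaling, Try5, Cabp2, Amy1, Hsd17b13 and Zc3h3 were no longer called against week 12, whereas Prss53, Gm281 and Mt3 were. For the smaller differences from week 12, the result on that scale is not given here.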

How the results depend on the processing

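The 613 genes called at week 8 became 154 (22 higher, 132 lower) without a filter on low FPKM, 166 (88 higher, 78 lower) with median ratio scaling, 385 (49 higher, 336 lower) without variance trend and robustness, 949 (131 higher, 818 lower) with all 48 islet libraries in 1 fit, and 266 (67 higher, 199 lower) with insulin and the acinar markers left out of the total, an alternative chosen after seeing the data. The count became 650 (46 higher, 604 lower) with insulin alone left out of the total. With 1 library left out the count ran from 116 (CD208) to 1787 (HFD217). The 11 genes past the fold as well became 26 with a pseudocount of 0.1, 19 with median ratio scaling without HFD217 (chosen after seeing the data), and 5 (without CD205 or HFD213) to 19 (without HFD217) with 1 library left out. The 233 genes that differed from week 12 became 65 with median ratio scaling, 7 with the 16 libraries of both weeks alone, and 74 to 378 with 1 library left out. The 3 genes that differed from week 4 became 48 with median ratio scaling, 0 with the 16 libraries alone (1681 had an unadjusted p under 0.05 in the fit of 48), and 0 to 309 with 1 library left out. The insulin share difference lay between 1.47 and 4.50 percentage points with 1 library left out. It reached p = 0.0286 by the exact permutation test without HFD217 (4.50 points), the library set apart partly by its low insulin share. Abcc8, not called, changed sign to 0.0699 with median ratio scaling and 0.0886 with that scaling without HFD217. Of 2069 values of named genes under the alternatives, 1499 kept direction and side of the threshold, 52 gained the call, 2 changed sign and the others lost it, and no called gene changed sign. The causes were not tested. No paired analysis was possible because HFD and CD islets came from different mice that share no number. Depth could not be weighed since the values hold no counts.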

Other observations

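Genes of cell adhesion and the extracellular matrix had a median log2 fold change of -0.24 over 26 tested, beside -0.11 over all genes. Of these P3h2 rose and Col6a3 fell. Globins, read from blood left in the islets, had a median of 0.45 over 4 tested genes, with summed levels of 73.4 to 124 FPKM in the CD islets and 89.3 to 195 FPKM in the HFD islets, and none was called.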
